A study of Phaseolus vulgaris with 18 samples.

Results

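Pods of the common bean (Phaseolus vulgaris) line Renaya, called the green line here, were compared at 14 and at 10 days after flowering (DAF). The comparison takes in 6 of the 18 libraries of the series, 3 at each age, chosen by the line and age in their labels, and every gene that passed the expression filter, 22805 of the 25124 in the table. Renaya keeps green pods until ripening. The contrasting line A18-1, called the golden line, turns from green to gold as its pods mature, and its 6 libraries of the same 2 ages serve below to test where the green line's change differed. All plants were grown in a climate chamber and none were treated. The design text names pod walls as the material and calls the replicates independent biological repeats, but the tissue label of the same libraries reads leaf, their cell type label reads somatic cell and the extraction text mentions adipose, so the material rests on the design text. Whether the plants were in one chamber run, and how many pods made up a library, is not given in the sources used here. Gene names are those of the best-matching Arabidopsis proteins as the authors' table gives them, and the roles stated for them are known from Arabidopsis.

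The bean pod wall is a green fruit tissue. Its outer cells hold chloroplasts, which make chlorophyll through the tetrapyrrole pathway from glutamate and depend on their own ribosomes and RNA polymerase as well as on proteins imported from the cytosol. Young pods first grow by division and expansion under an epidermis that builds a cuticle, and the wall later thickens, stores sugars, starch and protein, and passes them on to the seeds.

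Total counts ran from 48757139 to 71244211 in the 6 green libraries of 10 and 14 DAF. In a principal component analysis of all 9 green libraries 51.1% of the variance fell on the first component, which ordered the ages. The 10 DAF libraries lay at -105.6, -114.3 and -118.4 on it, the 14 DAF libraries at -46.7, 35.9 and 6.97, and the 18 DAF libraries at 128.2, 91.1 and 122.8. Replicate 1 of 14 DAF stood apart from the other 2 of its group on the side of the younger pods. Its mean correlation across genes was 0.949 with the 10 DAF libraries and 0.950 with its own group, whereas replicates 2 and 3 correlated at 0.914 and 0.921 with 10 DAF and at 0.959 with their own group. Results are therefore given with and without single libraries.

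**Figure D1:**
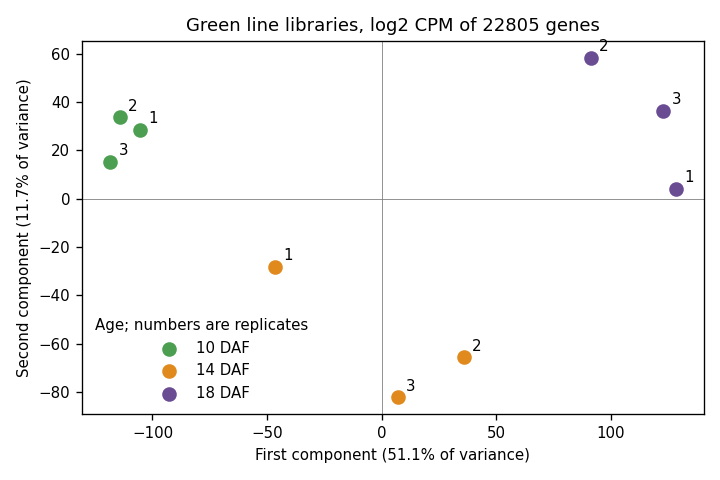
First and second principal components of log2 CPM (counts scaled to library size) in the 9 green line libraries, coloured by age, with replicate numbers beside the points. The 14 DAF libraries lie between the other ages on the first component, and replicate 1 at -46.7 is the one nearest to the 10 DAF libraries.

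Between 10 and 14 DAF, 1887 genes were called, 8.27% of those tested, at an adjusted p under 0.05 in edgeR's quasi-likelihood test. Of these, 1160 were higher (5.09%) and 727 lower (3.19%) at 14 DAF, and 1148 changed by 2-fold or more, 685 of them upward. The median log2 fold change over all tested genes was 0.02. Leaving out 1 library moved the count strongly. It was 727, 774 and 482 without 10 DAF replicates 1, 2 and 3, and 2331, 422 and 771 without 14 DAF replicates 1, 2 and 3. Without 14 DAF replicate 1, 1602 of the 1887 genes were still called. A core of 339 genes, 249 higher and 90 lower, was called in all 6 of these fits. Each gene described below as having risen or fallen is in this core unless the number of the 6 fits that called it is given. Levels are FPKM (fragments per kilobase, relative to the mapped fragments of the library) in replicates 1, 2 and 3, and changes are log2 fold changes of 14 over 10 DAF from the counts.

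**Figure D2:**
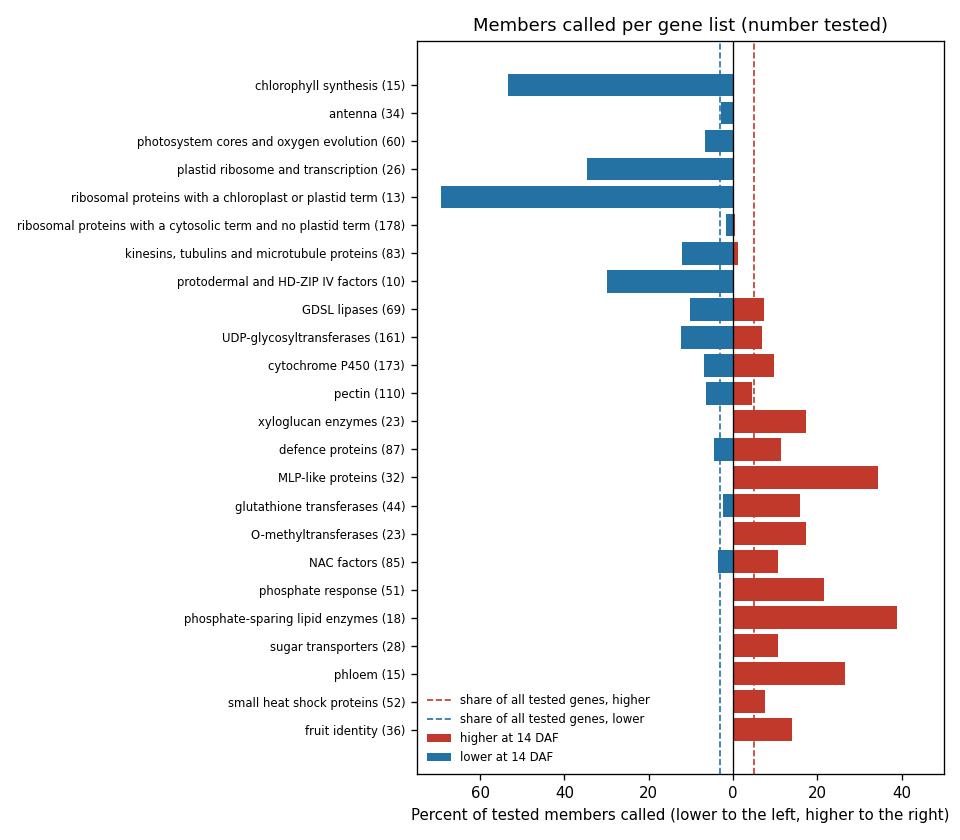
Percent of the tested members of each gene list that were called lower (bars to the left) or higher (bars to the right) at 14 DAF in the green line, with the number tested in brackets, and the same shares over all tested genes as dashed lines at 3.19% and 5.09%. Antenna, photosystem, chlorophyll synthesis and plastid ribosome lists have bars to the left only. MLP-like, phosphate and phloem lists have bars to the right only.

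Many chlorophyll synthesis genes fell. Of 15 tested members of the pathway, 8 were lower and 0 higher at 14 DAF, 53.3% against 3.19% of all genes, with a median log2 fold change of -0.71. Of the 8, 2 were in the core of 339. The count depended on single libraries: without 10 DAF replicates 1, 2 and 3 in turn it was 3, 5 and 3, and without 14 DAF replicates 1, 2 and 3 it was 6, 2 and 4. The direction did not, since the list median stayed between -0.78 and -0.68 in those fits.

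The core pair encodes uroporphyrinogen decarboxylase, which acts midway along the pathway and supplies both chlorophyll and haem. Phvul.005G065500 stood at 33.3, 36.5 and 38.8 FPKM at 10 DAF and 22, 16.4 and 17.4 FPKM at 14 DAF (log2 fold change -0.94, SE 0.18, adjusted p = 0.0076). Phvul.001G248800 stood at 59.1, 56.1 and 62.3 FPKM at 10 DAF and 35.4, 29.8 and 31.8 FPKM at 14 DAF (log2 fold change -0.86, SE 0.16, adjusted p = 0.0078). In both genes each 14 DAF library lay below each 10 DAF library, and the 3 libraries of an age lay close together.

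The other called members act on either side of that step. Hydroxymethylbilane synthase joins the pyrrole units, and Phvul.002G034500 fell most of the list, from 99.5, 96.2 and 124 FPKM to 45.9, 33.6 and 38.9 FPKM (log2 fold change -1.41, SE 0.27, adjusted p = 0.0086; called in 5 of the 6 fits). Its second gene, Phvul.011G177100, stood at 15, 14.8 and 15.7 FPKM at 10 DAF and 7.64, 7.17 and 8.5 FPKM at 14 DAF (log2 fold change -0.95, SE 0.22, adjusted p = 0.019; 2 of 6). Glutamyl-tRNA reductase commits glutamate to the pathway, and Phvul.008G185100 stood at 62.2, 56.1 and 56.5 FPKM at 10 DAF and 23.5, 28.2 and 40.1 FPKM at 14 DAF (log2 fold change -0.93, SE 0.25, adjusted p = 0.035; 1 of 6). Replicate 3 of 14 DAF was the highest of its group there, while all 3 were below 10 DAF. The next enzyme, glutamate-1-semialdehyde aminomutase Phvul.009G118500, changed by -0.75 (adjusted p = 0.039; 1 of 6). Coproporphyrinogen III oxidase Phvul.008G289900 changed by -0.70 (adjusted p = 0.018; 2 of 6). Magnesium-protoporphyrin methyltransferase Phvul.002G281900, on the branch to chlorophyll alone, changed by -0.71 (adjusted p = 0.0473) and was called in 0 of the 6 fits.

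Other steps did not pass the test although their libraries did not overlap. The H subunit of magnesium chelatase, Phvul.001G132200, which inserts magnesium, stood at 88.2, 83.4 and 81.7 FPKM at 10 DAF and 40.4, 48.1 and 67 FPKM at 14 DAF (log2 fold change -0.71, SE 0.26, adjusted p = 0.11). Protochlorophyllide oxidoreductase, the light-dependent late step, had 2 genes, Phvul.005G083700 at 521, 587 and 618 FPKM at 10 DAF and 377, 376 and 382 FPKM at 14 DAF (log2 fold change -0.59, SE 0.19, adjusted p = 0.063) and Phvul.011G148900 at 51.4, 84 and 68.9 FPKM at 10 DAF and 45.7, 37.9 and 27.9 FPKM at 14 DAF (log2 fold change -0.85, SE 0.34, adjusted p = 0.14). Uroporphyrinogen III synthase Phvul.009G063100 had a log2 fold change of -0.55 (adjusted p = 0.13). Every one of these genes had its 3 values at 14 DAF under its 3 at 10 DAF. In the table as a whole 19.1% of genes were without overlap in that direction and 17.1% in the other.

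**Figure D3:**
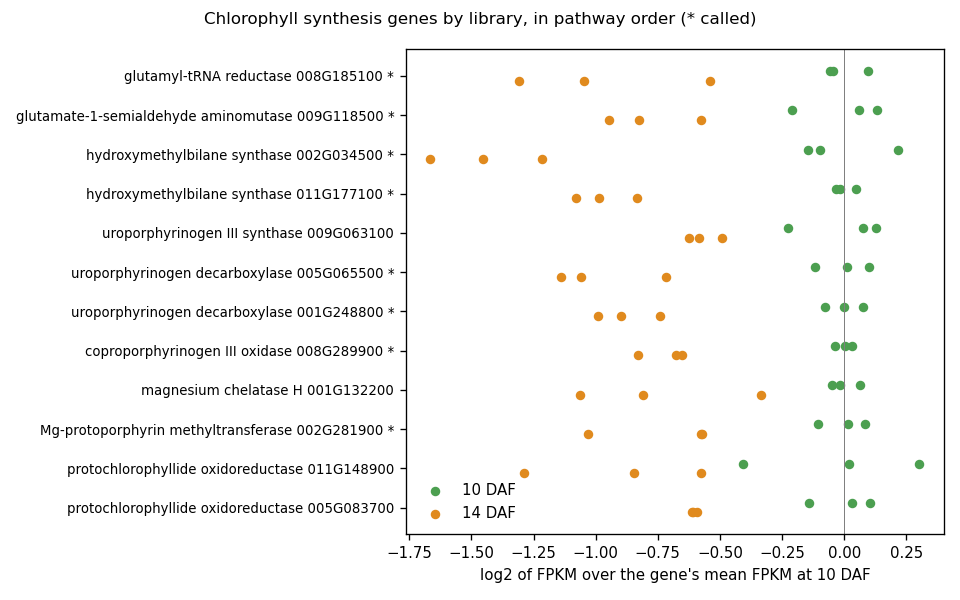
FPKM of 12 of the 15 chlorophyll synthesis genes in each green library at 10 and 14 DAF, as log2 of the value over the gene's mean at 10 DAF, in pathway order from the top, with called genes starred. In each row the 14 DAF points lie to the left of the 10 DAF points, and the other 3 members of the list had positive log2 fold changes of up to 0.19 that did not pass the test.

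Genes of the photosynthetic apparatus leaned the same way, and how many passed the test depended strongly on the fit. Among 60 genes of photosystem cores and oxygen evolution, 55 had a negative log2 fold change (median -0.64) and 4 were called lower, 6.67% against 3.19% of all genes. None of the 4 was in the core, and the count was 0 without 10 DAF replicate 1 or without 14 DAF replicate 3. It was 24 in a fit of the 6 green libraries alone, 14 by DESeq2 and 8 by limma on log2(FPKM + 1). PsbP-like protein 1, Phvul.008G015100, an assembly helper of photosystem II, stood at 31.7, 25.9 and 31.5 FPKM at 10 DAF and 10.7, 10.5 and 13.8 FPKM at 14 DAF (log2 fold change -1.34, SE 0.33, adjusted p = 0.024; 2 of 6). All 3 libraries of 14 DAF were below those of 10 DAF. PsbP family genes Phvul.009G098000 and Phvul.005G020200 changed by -1.01 and -0.92 (adjusted p = 0.016 and 0.017; 2 and 4 of 6).

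Of 34 antenna genes, which bind chlorophyll and pass on light energy, 30 had negative log2 fold changes (median -0.45) and 1 was called lower (2.94%), Phvul.003G225000 at 130.2, 123 and 120.1 FPKM at 10 DAF and 72.2, 60.2 and 62.7 FPKM at 14 DAF (log2 fold change -0.92, SE 0.22, adjusted p = 0.019; 2 of 6). In the fit of the 6 green libraries alone 9 antenna genes were lower, by DESeq2 2 and by limma on log2(FPKM + 1) 1. None of 11 tested carbon fixation genes was called. Rubisco small subunit genes were among the most abundant, and Phvul.004G073400 stood at 1849.7, 1679.8 and 1763 FPKM at 10 DAF and 813, 1023 and 1680.0 FPKM at 14 DAF (log2 fold change -0.60, SE 0.60, adjusted p = 0.59). Its 14 DAF replicate 3 lay at the level of 10 DAF and the other 2 lay well below. Rubisco activase Phvul.008G192400 and phosphoribulokinase Phvul.002G133100 showed the same order of the 14 DAF libraries, with log2 fold changes of -0.81 and -0.51 (adjusted p = 0.20 and 0.59).

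One chlorophyll breakdown gene rose. NON-YELLOWING 1 (Phvul.002G153100), also known as STAY-GREEN, helps strip magnesium from chlorophyll when leaves lose their green. It stood at 6.27, 6.36 and 4.8 FPKM at 10 DAF and 9.19, 16.7 and 30.3 FPKM at 14 DAF and at 26.1, 43.4 and 24.5 FPKM at 18 DAF (log2 fold change 1.67, SE 0.36, adjusted p = 0.013 at 14 against 10 DAF; 4 of 6). The libraries of 14 DAF were spread over a wide range, all above 10 DAF and replicate 3 highest. The other 7 genes of the breakdown list were not called. Of 25 carotenoid genes, 1 was higher and 1 lower. The lower one, lycopene cyclase Phvul.009G230300, changed by -0.59 (adjusted p = 0.047) and was called in 0 of the 6 fits.

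Many genes for the plastid's own protein synthesis fell, and cytosolic ribosome genes mostly did not pass the test. Among 272 ribosomal protein genes 24 were lower (8.82%) and 1 higher (0.368%) at 14 DAF, against 3.19% and 5.09% of all genes. The count of 24 depended on single libraries: without 10 DAF replicates 1, 2 and 3 in turn it was 11, 16 and 7, and without 14 DAF replicates 1, 2 and 3 it was 28, 4 and 9. Of the 13 that carry a chloroplast or plastid annotation term, 9 were lower and all 13 had negative log2 fold changes (median -0.80), while of 178 with a cytosolic and no plastid term 3 were lower and 1 higher (median -0.23). These subsets, like the next list, were made after values had been seen. The plastid and cytosolic subsets leave out part of the 272 genes and of the 24 lower calls. For the plastid-annotated genes the count of 9 moved with the libraries: without 10 DAF replicates 1, 2 and 3 in turn it was 3, 5 and 3, and without 14 DAF replicates 1, 2 and 3 it was 9, 1 and 3.

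Of 26 genes described as plastid ribosomal or plastid transcription proteins, 9 were lower and 0 higher, and 3 of the 9 were in the core. Plastid-specific ribosomal protein 4 (Phvul.004G171400) stood at 119, 101 and 119 FPKM at 10 DAF and 63, 41.6 and 43.3 FPKM at 14 DAF (log2 fold change -1.17, SE 0.20, adjusted p = 0.0057). Plastid ribosomal protein L11 (Phvul.006G007380) stood at 137, 139 and 154 FPKM at 10 DAF and 78.9, 68.2 and 74.4 FPKM at 14 DAF (log2 fold change -0.94, SE 0.17, adjusted p = 0.007). Plastid transcriptionally active 6 (Phvul.009G129900), a component of the plastid-encoded RNA polymerase complex, stood at 31.5, 27 and 33.8 FPKM at 10 DAF and 13.8, 15.5 and 14.6 FPKM at 14 DAF (log2 fold change -1.06, SE 0.18, adjusted p = 0.0042). In all 3 genes the ages were separated by a wide gap compared with the spread of the replicates. The count of 9 varied by library: without 10 DAF replicates 1, 2 and 3 in turn it was 6, 6 and 3, and without 14 DAF replicates 1, 2 and 3 it was 7, 3 and 5.

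Ribosomal protein L33 family gene Phvul.011G128100 was also in the core, at 67.2, 65.2 and 80.7 FPKM at 10 DAF and 30.9, 27.2 and 30.5 FPKM at 14 DAF (log2 fold change -1.25, SE 0.23, adjusted p = 0.0067). Plastid ribosomal protein PSRP-3 (Phvul.008G005100) changed by -1.07 (adjusted p = 0.012; 5 of 6), and S21 and S5 family genes Phvul.001G094500 and Phvul.002G229700 by -1.42 and -1.26 (adjusted p = 0.012 and 0.014; 4 and 2 of 6). Among 17 genes of plastid protein import, a list made after values were seen, 2 were lower and 1 higher. These shares were 11.8% and 5.88%, against 3.19% and 5.09% of all genes. A subunit of the inner envelope translocon, Phvul.008G250000, fell by a small but even amount, from 36.6, 41.2 and 39.9 FPKM to 27.7, 28.7 and 27.0 FPKM (log2 fold change -0.48, SE 0.10, adjusted p = 0.0098). Chloroplast HSP70-2 (Phvul.006G219500), a plastid chaperone, changed by -0.73 (adjusted p = 0.017; 2 of 6).

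A pair of iron superoxide dismutase genes, both matched to Arabidopsis FSD2 and encoding plastid enzymes that remove superoxide, moved in opposite directions. Phvul.007G135400 had the lowest adjusted p of the comparison. It stood at 14.7, 22.5 and 14.3 FPKM at 10 DAF and 247, 285 and 335 FPKM at 14 DAF, a fitted 16.9-fold rise (log2 fold change 4.08, SE 0.25, adjusted p = 2.0e-06), and at 654, 394 and 497 FPKM at 18 DAF. Every 14 DAF library was far above every 10 DAF library. The other gene, Phvul.007G240600, stood at 27.4, 32.4 and 37.6 FPKM at 10 DAF and 14, 13 and 15.3 FPKM at 14 DAF (log2 fold change -1.19, SE 0.18, adjusted p = 0.0025) and at 13.4, 13.3 and 13.6 FPKM at 18 DAF. Its libraries likewise did not overlap, and the later ages lay close together. Reads of similar copies may have been shared between the 2 genes.

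Copper enzymes and copper chaperones were split as well. In a list of 12 superoxide dismutases and copper chaperones, made after values were seen, 4 were higher and 4 lower, and only the iron enzymes named above were in the core. Copper/zinc superoxide dismutase 2 (Phvul.011G086300), the plastid form, stood at 177, 161 and 186 FPKM at 10 DAF and 106, 81.2 and 94.7 FPKM at 14 DAF (log2 fold change -0.88, SE 0.25, adjusted p = 0.041; 1 of 6), and its copper chaperone Phvul.003G217000 changed by -0.73 (adjusted p = 0.044; 1 of 6). A chloroplast-targeted copper chaperone, Phvul.011G068700, stood at 6.07, 6.73 and 7.91 FPKM at 10 DAF and 1.65, 0.758 and 1.24 FPKM at 14 DAF (log2 fold change -2.46, SE 0.56, adjusted p = 0.017; 3 of 6). Higher were the chaperone homolog of anti-oxidant 1, Phvul.007G103800, at 300.2, 287 and 272 FPKM at 10 DAF and 369, 594 and 485 FPKM at 14 DAF (log2 fold change 0.75, SE 0.17, adjusted p = 0.016; 3 of 6), and copper chaperone Phvul.007G247500 with a log2 fold change of 0.95 (adjusted p = 0.03; 1 of 6).

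Some genes that mark a young epidermis in Arabidopsis fell steeply. PROTODERMAL FACTOR 1 (Phvul.008G190900), expressed in the outermost cell layer, stood at 62.8, 81.7 and 88.2 FPKM at 10 DAF and 5.96, 3.11 and 1.9 FPKM at 14 DAF, a fitted 20.5-fold fall (log2 fold change -4.36, SE 0.57, adjusted p = 0.0011), and at 0.588, 1.09 and 1.42 FPKM at 18 DAF. Among 10 tested protodermal and HD-ZIP IV genes, a list made after values were seen, 3 were lower and 0 higher. The share lower was 30% against 3.19% of all genes, and all 3 were in the core. In the planned epidermis and cuticle list 0 of 18 tested genes were lower and 1 was higher (median -0.09). HD-ZIP IV proteins are homeodomain factors of epidermal identity. Phvul.010G148700 stood at 9.93, 6.02 and 8.48 FPKM at 10 DAF and 2.43, 1.63 and 1.51 FPKM at 14 DAF (log2 fold change -2.11, SE 0.40, adjusted p = 0.0082) and Phvul.005G168900 at 3.83, 10.6 and 3.59 FPKM at 10 DAF and 1.13, 0.904 and 0.986 FPKM at 14 DAF (log2 fold change -2.55, SE 0.42, adjusted p = 0.0037). In each gene the age groups did not overlap.

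Genes of surface lipid chemistry were mixed. Lipid transfer protein 6 (Phvul.010G069500) stood at 210.1, 193 and 334 FPKM at 10 DAF and 26.1, 25.3 and 30.1 FPKM at 14 DAF (log2 fold change -3.16, SE 0.28, adjusted p = 9.7e-05) and at 11.4, 12.8 and 5.78 FPKM at 18 DAF. MYB16 (Phvul.004G029800), a regulator of cuticle and epidermal cell shape, stood at 10.3, 12.2 and 12 FPKM at 10 DAF and 2.06, 1.63 and 1.36 FPKM at 14 DAF (log2 fold change -2.74, SE 0.46, adjusted p = 0.0042). Cytochrome P450 77B1 (Phvul.003G076900) fell to traces, with 7.07, 7.58 and 9.07 FPKM at 10 DAF and 0.299, 0.0448 and 0.0427 FPKM at 14 DAF (log2 fold change -5.80, SE 1.15, adjusted p = 0.012; 5 of 6). All 3 genes were lower in each 14 DAF library than in any of 10 DAF. Of 69 GDSL lipases, which include cutin enzymes, 5 were higher and 7 lower, 7.25% and 10.1% against 5.09% and 3.19% of all genes. By limma on log2(FPKM + 1) 4 and 18 of this list, made after values were seen, were called. Lipase Phvul.006G107100 stood at 70.4, 55.7 and 72.9 FPKM at 10 DAF and 2.22, 0 and 0.0893 FPKM at 14 DAF (log2 fold change -6.31, SE 1.30, adjusted p = 0.011) and Phvul.006G179500 at 72.9, 67.1 and 91.9 FPKM at 10 DAF and 12.5, 1.18 and 2.23 FPKM at 14 DAF (log2 fold change -3.79, SE 0.77, adjusted p = 0.011). Replicate 1 held the most of both genes among the 14 DAF libraries.

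In the other direction, GDSL lipase Phvul.009G018200 stood at 2.32, 3.01 and 1.29 FPKM at 10 DAF and 11.5, 27.4 and 23.8 FPKM at 14 DAF (log2 fold change 3.23, SE 0.39, adjusted p = 7.2e-04). Ketoacyl-CoA synthase 1 (Phvul.009G257100), which lengthens fatty acids for waxes, stood at 1.77, 2.13 and 1.37 FPKM at 10 DAF and 5.72, 9.93 and 6.12 FPKM at 14 DAF (log2 fold change 2.05, SE 0.39, adjusted p = 0.0079). Both were higher in every 14 DAF library than in any 10 DAF library. Among 18 tested epidermis and cuticle markers this was the sole call. The summed FPKM of the 19 markers in the table ran from 158.2 to 177.0 at 10 DAF and from 139.0 to 170.3 at 14 DAF, and these ranges overlap. In bulk tissue, fewer cells of a type and less RNA per cell cannot be told apart.

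Some kinesin and microtubule genes were lower, and few cell cycle genes were called. Of 83 kinesin, tubulin and microtubule genes, 10 were lower and 1 higher, 12% and 1.20% against 3.19% and 5.09% of all genes, with a median of -0.19. None was in the core, and the count depended on single libraries: without 10 DAF replicates 1, 2 and 3 in turn it was 6, 3 and 0, and without 14 DAF replicates 1, 2 and 3 it was 7, 0 and 6. A kinesin with a malectin-like domain, Phvul.002G145000, stood at 4.42, 6.51 and 7.79 FPKM at 10 DAF and 1.6, 0.963 and 1.56 FPKM at 14 DAF and at 0.473, 0.673 and 0.178 FPKM at 18 DAF (log2 fold change -2.16, SE 0.45, adjusted p = 0.012 at 14 against 10 DAF; 4 of 6). PHRAGMOPLAST ORIENTING KINESIN 2 (Phvul.003G293500), which helps place the new cross wall, stood at 5.12, 5.997 and 6.95 FPKM at 10 DAF and 1.91, 1.59 and 2.99 FPKM at 14 DAF (log2 fold change -1.47, SE 0.34, adjusted p = 0.018; 4 of 6). Kinesin 5 (Phvul.002G218100), a spindle motor, and motor gene Phvul.007G159100 changed by -1.55 and -2.30 (adjusted p = 0.032 and 0.039; 2 and 1 of 6).

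Among 82 cyclins and cell cycle kinases 3 were lower and 1 higher, 3.66% and 1.22%, the first near the 3.19% of all genes. The count of 3 lower was 1, 0 and 0 without 10 DAF replicates 1, 2 and 3 and 2, 0 and 0 without 14 DAF replicates 1, 2 and 3, while DESeq2 called 14 lower and limma on log2(FPKM + 1) 15. CYCLIN D1;1 (Phvul.003G234000), which acts on entry into the cycle, stood at 7.83, 6.7 and 6.12 FPKM at 10 DAF and 1.09, 1.4 and 1.26 FPKM at 14 DAF (log2 fold change -2.44, SE 0.62, adjusted p = 0.027; 0 of 6). Cyclin family gene Phvul.001G119700 stood at 26.4, 43.1 and 45.6 FPKM at 10 DAF and 10.3, 4.16 and 8.21 FPKM at 14 DAF (log2 fold change -2.32, SE 0.67, adjusted p = 0.0454; 1 of 6). Both were lower in every 14 DAF library, and neither call outlasted the leaving out of most single libraries. None of 35 histone genes was called, although 31 of the 35 had negative log2 fold changes. Of 35 DNA replication genes 1 was called, replication protein A 1A (Phvul.009G228500), a single-strand binding protein that also serves repair, and it was higher, at 11.7, 12.3 and 12.2 FPKM at 10 DAF and 17, 23.6 and 18.4 FPKM at 14 DAF (log2 fold change 0.71, SE 0.14, adjusted p = 0.0094; 5 of 6).

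Plasma membrane proton pumps, which acidify the wall during growth, fell in 3 of 11 genes and rose in 1. These shares were 27.3% and 9.09%, against 3.19% and 5.09% of all genes, in a list made after values were seen. Pump H(+)-ATPase 2 (Phvul.003G143800) stood at 17.9, 16.5 and 18.7 FPKM at 10 DAF and 2.23, 2.97 and 3.98 FPKM at 14 DAF (log2 fold change -2.53, SE 0.47, adjusted p = 0.0075), and H(+)-ATPase 11 (Phvul.009G190500) at 30.5, 37.4 and 35.6 FPKM at 10 DAF and 17.5, 7.67 and 10.3 FPKM at 14 DAF (log2 fold change -1.51, SE 0.30, adjusted p = 0.0094). In both genes the 14 DAF libraries were all below the 10 DAF libraries. Of 23 expansin genes, which loosen walls, 1 was called, EXPANSIN A15 (Phvul.009G186400), at 4.44, 9.91 and 3.75 FPKM at 10 DAF and 1.52, 1.13 and 2.71 FPKM at 14 DAF (log2 fold change -1.74, SE 0.41, adjusted p = 0.02; 4 of 6).

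Wall enzyme genes moved both ways. Of 23 xyloglucan enzyme genes, 4 were higher and 0 lower, 17.4% against 5.09% of all genes, and 1 was in the core. Xyloglucan endotransglucosylase/hydrolase 6 (Phvul.003G231900), which cuts and rejoins the chains that tether cellulose, stood at 3.18, 2.73 and 1.07 FPKM at 10 DAF and 22.5, 107 and 26.1 FPKM at 14 DAF and at 150.2, 164 and 69 FPKM at 18 DAF (log2 fold change 4.46, SE 0.77, adjusted p = 0.0053 at 14 against 10 DAF). Replicate 2 of 14 DAF was several times above the other 2, and all were above 10 DAF. Without 10 DAF replicates 1, 2 and 3 the count of 4 was 1, 2 and 1, and without 14 DAF replicates 1, 2 and 3 it was 3, 1 and 1.

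Among 110 pectin genes 5 were higher and 7 lower, shares of 4.55% and 6.36%, and 4 of the 12 were in the core. A pectin lyase-like gene, Phvul.001G135100, rose from near 1 FPKM or below and stood at 0.905, 1.08 and 0.364 FPKM at 10 DAF and 26.7, 25.4 and 13.7 FPKM at 14 DAF (log2 fold change 4.80, SE 0.62, adjusted p = 0.0011). Pectin lyase-like genes Phvul.004G108800 and Phvul.003G127700 changed by 3.12 and 2.21 (adjusted p = 0.012 and 0.025; 4 and 2 of 6). Pectin methylesterase 3 (Phvul.009G261700), which removes methyl groups from pectin, stood at 44.8, 44.9 and 47.8 FPKM at 10 DAF and 9.32, 4.71 and 7.53 FPKM at 14 DAF (log2 fold change -2.65, SE 0.42, adjusted p = 0.003). Its 3 libraries of 14 DAF were all far below those of 10 DAF. Genes with adjacent identifiers for polygalacturonase inhibiting protein 1, a wall protein that blocks fungal pectin enzymes, fell, Phvul.002G201600 at 52.5, 66.5 and 40.5 FPKM at 10 DAF and 12.6, 6.54 and 3.9 FPKM at 14 DAF (log2 fold change -2.75, SE 0.53, adjusted p = 0.0085; 5 of 6) and Phvul.002G201700 with a log2 fold change of -3.0 (adjusted p = 0.014; 4 of 6).

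Transcription factors of the NAC family, several of which act in secondary walls and ageing tissue, rose in 9 of 85 tested genes and fell in 3, 10.6% and 3.53% against 5.09% and 3.19% of all genes. Of the 9, 4 were in the core. The count of 9 was 5, 7 and 4 without 10 DAF replicates 1, 2 and 3 and 15, 5 and 6 without 14 DAF replicates 1, 2 and 3, and the 3 lower were 2 without 14 DAF replicate 1 and 0 in the other 5 fits. NAC073 (Phvul.002G328700), known from secondary wall formation, stood at 5.68, 5.75 and 7.97 FPKM at 10 DAF and 69.95, 143 and 126 FPKM at 14 DAF (log2 fold change 4.13, SE 0.52, adjusted p = 9.3e-04) and at 78, 81.2 and 221 FPKM at 18 DAF. NAC100 (Phvul.009G186000) stood at 0.262, 0.514 and 0.0668 FPKM at 10 DAF and 12.9, 7.8 and 8.6 FPKM at 14 DAF (log2 fold change 5.09, SE 0.82, adjusted p = 0.0034). NAC2 (Phvul.005G084600) stood at 3.1, 4.37 and 2.46 FPKM at 10 DAF and 11.6, 22.1 and 17.3 FPKM at 14 DAF (log2 fold change 2.36, SE 0.32, adjusted p = 0.0016). In all 3 genes each 14 DAF library was above each 10 DAF library. The fourth, NAC074 (Phvul.007G192100), stood at 0.57, 0.409 and 0.272 FPKM at 10 DAF and 4.6, 5.49 and 4.55 FPKM at 14 DAF (log2 fold change 3.49, SE 0.65, adjusted p = 0.0076), and a second gene matched to NAC074, Phvul.001G161700, changed by 2.88 (adjusted p = 0.011; 5 of 6). Lower were XYLEM NAC DOMAIN 1 (Phvul.006G208600) and NAC035 (Phvul.003G090501), with log2 fold changes of -2.21 and -1.97 (adjusted p = 0.0451 and 0.042; 1 and 0 of 6). Of 36 tested xylem and fibre markers 1 was lower, XYLEM NAC DOMAIN 1, and 0 were higher. Over all 45 genes of this marker list, tested or not, FPKM summed to 203.4 to 248.5 at 10 DAF and to 184.9 to 252.1 at 14 DAF.

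Genes of the fruit identity list were called higher in 5 of 36 tested, 13.9% against 5.09% of all genes, and lower in 0. The list takes in shatterproof, agamous-like, fruitfull, crabs claw and yabby genes, and 0 of the 5 were in the core. Without 10 DAF replicates 1, 2 and 3 the count was 0, 1 and 0, and without 14 DAF replicates 1, 2 and 3 it was 4, 0 and 0. A K-box and MADS-box gene, Phvul.008G190600, stood at 75.9, 118 and 86.6 FPKM at 10 DAF and 192, 194 and 153 FPKM at 14 DAF (log2 fold change 0.96, SE 0.26, adjusted p = 0.035; 0 of 6). AGAMOUS-like 18 (Phvul.007G251600) stood at 0.563, 3.82 and 0.749 FPKM at 10 DAF and 6.11, 10.9 and 8.32 FPKM at 14 DAF (log2 fold change 2.30, SE 0.58, adjusted p = 0.027; 2 of 6). Summed over the 62 genes of the list in the table, FPKM was 728.2, 875.8 and 773.7 at 10 DAF and 941.7, 1171 and 1154 at 14 DAF.

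Auxin genes were called less often than all genes and ethylene genes somewhat more often, without a test of either share. Of 162 auxin genes 4 rose and 3 fell, shares of 2.47% and 1.85% that lie below those of all genes. A growth-linked SAUR gene, Phvul.011G174700, stood at 7.15, 2.49 and 2.73 FPKM at 10 DAF and 17.4, 91.3 and 19.3 FPKM at 14 DAF (log2 fold change 3.34, SE 0.62, adjusted p = 0.0075) and an auxin efflux carrier, Phvul.002G119300, at 4.69, 5.11 and 3.75 FPKM at 10 DAF and 13.8, 14.9 and 19.2 FPKM at 14 DAF (log2 fold change 1.82, SE 0.22, adjusted p = 7.2e-04). Another SAUR gene, Phvul.009G015900, went the other way with -2.53 (adjusted p = 0.012; 5 of 6). Each of these genes had non-overlapping age groups. Of 49 ethylene genes 4 were higher and 2 lower, 8.16% and 4.08% against 5.09% and 3.19% of all genes, and 1 was in the core. The count of 4 higher was 1, 1 and 2 without 10 DAF replicates 1, 2 and 3 and 7, 1 and 2 without 14 DAF replicates 1, 2 and 3, and the 2 lower were 0 or 1. The ethylene signalling factor EIN3 family gene Phvul.006G011300 stood at 24, 20.8 and 20.1 FPKM at 10 DAF and 33.8, 54.8 and 42.6 FPKM at 14 DAF (log2 fold change 1.02, SE 0.19, adjusted p = 0.0078). Ethylene-forming enzymes, which make the hormone in its last step, were represented by Phvul.008G213800 and Phvul.008G214200, which changed by 3.41 and 2.45 (adjusted p = 0.011 and 0.023; 3 and 1 of 6). For gibberellin 1 of 33 was called, gibberellin 2-oxidase 8 (Phvul.007G052000), an inactivating enzyme, with 1.94 (adjusted p = 0.039; 0 of 6). For abscisic acid 1 of 20 was higher, and for jasmonate 1 of 50 was higher and 1 lower.

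Many genes for MLP-like proteins rose. These are small proteins of the major latex and Bet v 1 fold that bind hydrophobic ligands. Of 32 tested, a list made after values were seen, 11 were higher and 0 lower, 34.4% against 5.09% of all genes, and 30 of 32 had positive log2 fold changes (median 1.95). Phvul.003G109100, matched to MLP423, stood at 10.2, 5.24 and 9.46 FPKM at 10 DAF and 114, 2298 and 1148 FPKM at 14 DAF (log2 fold change 7.13, SE 0.99, adjusted p = 0.0016) and at 7291, 3695 and 10218 FPKM at 18 DAF. Phvul.011G183000, matched to MLP43, stood at 4.5, 2.95 and 6.99 FPKM at 10 DAF and 86.5, 821 and 272 FPKM at 14 DAF (log2 fold change 6.34, SE 0.84, adjusted p = 0.0013). In both genes replicate 1 of 14 DAF was far below replicates 2 and 3 and far above 10 DAF. Phvul.011G184200, also matched to MLP43, was abundant at both ages and its replicates were even, at 439, 656 and 471 FPKM at 10 DAF and 1513, 2187 and 1855 FPKM at 14 DAF (log2 fold change 1.84, SE 0.20, adjusted p = 3.7e-04). Genes Phvul.002G209400 and Phvul.002G209500 stood at 0.302, 0.17 and 0.403 FPKM at 10 DAF and 1.6, 109 and 31.3 FPKM at 14 DAF and at 0.635, 0.28 and 0.965 FPKM at 10 DAF and 2.7, 179 and 64.4 FPKM at 14 DAF, with adjusted p = 0.016 and 0.016, each called in 2 of 6. Their values ran in parallel, and reads may have been split between such near copies. Of the 11, 4 were in the core. The count of 11 was 6, 5 and 5 without 10 DAF replicates 1, 2 and 3 and 10, 5 and 7 without 14 DAF replicates 1, 2 and 3. By limma on log2(FPKM + 1) 9 were higher and 0 lower, and the list median was 0.52.

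Defence protein genes were called higher in 10 and lower in 4 of 87 tested, 11.5% and 4.60%, and 4 of those higher were in the core. By limma on log2(FPKM + 1) 6 were higher and 7 lower. Basic chitinase Phvul.002G114100, an enzyme that cuts fungal chitin, stood at 13.7, 11.1 and 10.3 FPKM at 10 DAF and 46.9, 383 and 305 FPKM at 14 DAF (log2 fold change 4.36, SE 0.70, adjusted p = 0.0034). Chitinase A Phvul.004G101500 stood at 2.87, 1.18 and 3.13 FPKM at 10 DAF and 15.3, 329 and 189.8 FPKM at 14 DAF (log2 fold change 6.19, SE 1.21, adjusted p = 0.0092) and at 4.5, 7.43 and 7.43 FPKM at 18 DAF. Beta-1,3-glucanase 1, which cuts callose and fungal glucan, had 2 entries with nearly the same values, so they may be 1 locus, and Phvul.001G128500 stood at 0.512, 0 and 0.0653 FPKM at 10 DAF and 9.66, 82.5 and 14.2 FPKM at 14 DAF (log2 fold change 7.38, SE 1.22, adjusted p = 0.0038). Replicate 2 was the highest and replicate 1 the lowest 14 DAF library in all 3 genes. Another chitinase A, Phvul.011G167000, went the opposite way, at 51.4, 25.2 and 32.9 FPKM at 10 DAF and 2.67, 0.938 and 1.08 FPKM at 14 DAF (log2 fold change -4.50, SE 0.94, adjusted p = 0.012; 4 of 6), and so did thaumatin-like gene Phvul.011G065300, at 142, 297 and 164 FPKM at 10 DAF and 37.1, 9.55 and 15.1 FPKM at 14 DAF (log2 fold change -3.24, SE 0.72, adjusted p = 0.016; 3 of 6). PR1 (Phvul.006G196900), a classic defence marker, was higher by 2.19 (adjusted p = 0.039; 1 of 6). The count of 10 higher was 4, 4 and 4 without 10 DAF replicates 1, 2 and 3 and 14, 4 and 6 without 14 DAF replicates 1, 2 and 3.

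Of 72 lipid transfer genes 4 were higher and 1 lower, and lipid transfer protein 6 was the one in the core. These shares were 5.56% and 1.39%, the first near the 5.09% of all genes and the second below their 3.19%. Phvul.009G211200 stood at 1.73, 0.443 and 2.07 FPKM at 10 DAF and 12, 489 and 192 FPKM at 14 DAF (log2 fold change 7.32, SE 1.80, adjusted p = 0.024; 2 of 6) and Phvul.006G138700 at 39.3, 49.3 and 92.1 FPKM at 10 DAF and 816, 698 and 1714 FPKM at 14 DAF (log2 fold change 4.16, SE 1.13, adjusted p = 0.036; 1 of 6). The first followed the order of the defence genes over the 14 DAF libraries and the second was highest in replicate 3. Of 337 immune receptor genes 8 were higher and 3 lower, shares of 2.37% and 0.890%, and none was in the core.

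Genes of the phosphate response were called higher in 11 of 51 tested, 21.6% against 5.09% of all genes, and lower in 0, and 6 were in the core. In plants these genes are switched on when phosphate runs short. The list median was 0.17. Purple acid phosphatases release phosphate from organic compounds. Of these, Phvul.002G181500 (PAP8) stood at 8.27, 18.2 and 8.83 FPKM at 10 DAF and 39.9, 45.6 and 61.7 FPKM at 14 DAF (log2 fold change 2.07, SE 0.32, adjusted p = 0.0027) and Phvul.011G008700 (PAP10) at 8.13, 6.48 and 5.96 FPKM at 10 DAF and 16.2, 41.5 and 36.3 FPKM at 14 DAF (log2 fold change 2.18, SE 0.40, adjusted p = 0.0071). Both were higher in every 14 DAF library than in any 10 DAF library. PAP17 (Phvul.002G332100), a widely used marker of phosphate shortage, stood at 2.41, 10.8 and 5.87 FPKM at 10 DAF and 46.8, 122 and 348 FPKM at 14 DAF and at 221, 59.7 and 8.18 FPKM at 18 DAF (log2 fold change 4.74, SE 1.06, adjusted p = 0.016 at 14 against 10 DAF; 3 of 6). Its 18 DAF values overlapped with both earlier ages.

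PHOSPHATE STARVATION-INDUCED GENE 3 (Phvul.011G016300) stood at 9.61, 16.8 and 12.1 FPKM at 10 DAF and 29.6, 76.3 and 130.4 FPKM at 14 DAF (log2 fold change 2.60, SE 0.47, adjusted p = 0.0066). SPX1 (Phvul.009G197000), a phosphate sensor, stood at 6.01, 8.4 and 7.76 FPKM at 10 DAF and 13.8, 41.3 and 108 FPKM at 14 DAF (log2 fold change 2.85, SE 0.63, adjusted p = 0.016; 2 of 6). Phosphate transporter 1;7 (Phvul.001G160600) stood at 0.35, 0.518 and 0.454 FPKM at 10 DAF and 1.04, 5.8 and 8.26 FPKM at 14 DAF (log2 fold change 3.47, SE 0.92, adjusted p = 0.033; 1 of 6). In these genes and in PAP17 replicate 3 was the highest and replicate 1 the lowest 14 DAF library. The count of 11 was 7, 8 and 6 without 10 DAF replicates 1, 2 and 3 and 14, 8 and 7 without 14 DAF replicates 1, 2 and 3.

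Enzymes that replace or recycle phospholipids, a list made after values were seen, were higher in 7 of 18 and lower in 0 (38.9%), and 1 was in the core. Phospholipase C4 (Phvul.010G033400), which strips the phosphate head group, stood at 0.642, 0.628 and 0.971 FPKM at 10 DAF and 2.56, 13.8 and 10.4 FPKM at 14 DAF (log2 fold change 3.56, SE 0.67, adjusted p = 0.0078). Genes named after pyridoxal phosphate phosphatase, Phvul.010G141050 and Phvul.010G140900, stood at 0.39, 0.36 and 0.544 FPKM at 10 DAF and 7.27, 23 and 76.9 FPKM at 14 DAF (log2 fold change 6.27, SE 1.27, adjusted p = 0.011; 5 of 6) and at 3.11, 2.77 and 2.4 FPKM at 10 DAF and 18.6, 42.1 and 166 FPKM at 14 DAF (log2 fold change 4.72, SE 1.12, adjusted p = 0.02; 2 of 6). Replicate 3 of 14 DAF was again well above the others. Sulfoquinovosyldiacylglycerol 2 (Phvul.010G005100), which makes a sulfolipid of plastid membranes, changed by 0.97 (adjusted p = 0.041; 1 of 6). Without 10 DAF replicates 1, 2 and 3 the count of 7 was 2, 2 and 1, and without 14 DAF replicates 1, 2 and 3 it was 8, 4 and 2.

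Some phloem marker and sugar carrier genes rose. All 15 phloem markers had positive log2 fold changes (median 0.69) and 4 were called higher (26.7%), 1 of them in the core. Phloem protein 2-B10 (Phvul.001G013300), a lectin-like gene, stood at 19.6, 22 and 16.3 FPKM at 10 DAF and 45.5, 102 and 48.6 FPKM at 14 DAF (log2 fold change 1.77, SE 0.32, adjusted p = 0.0064), and phloem protein 2-A9 (Phvul.009G205600) at 29, 29.2 and 42.1 FPKM at 10 DAF and 45.1, 113 and 220.0 FPKM at 14 DAF (log2 fold change 1.89, SE 0.43, adjusted p = 0.017; 1 of 6). Summed over the 15 markers, FPKM was 234.3, 230.8 and 241.5 at 10 DAF and 336.7, 580.9 and 653.7 at 14 DAF. The sums did not overlap, and replicate 1 was again nearest to 10 DAF. The count of 4 was 2, 1 and 1 without 10 DAF replicates 1, 2 and 3 and 5, 1 and 2 without 14 DAF replicates 1, 2 and 3.

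Of 28 sugar transporters 3 were higher and 0 lower, 10.7% against 5.09%. SUCROSE TRANSPORTER 4 (Phvul.008G185300), a vacuolar sucrose carrier, rose evenly, at 11.3, 12.2 and 10.8 FPKM at 10 DAF and 20.4, 24 and 21.2 FPKM at 14 DAF (log2 fold change 0.95, SE 0.10, adjusted p = 3.7e-04) and at 38.8, 34.4 and 30.03 FPKM at 18 DAF. An MtN3 family gene, Phvul.001G064300, of the SWEET sugar exporters, stood at 27.5, 19.98 and 24.2 FPKM at 10 DAF and 50.1, 60.03 and 62.1 FPKM at 14 DAF (log2 fold change 1.27, SE 0.19, adjusted p = 0.0027). Replicates of one age lay close together in both genes. Sucrose phosphate synthase 1F (Phvul.003G170100) and sucrose phosphatase Phvul.007G265500, successive enzymes of sucrose synthesis, changed by 0.84 and 0.55 (adjusted p = 0.012 and 0.016; 4 and 2 of 6), among 3 higher and 1 lower of 55 starch and sucrose genes. Of 31 aquaporins 2 were higher, among them the abundant PIP2;4 gene Phvul.005G135300, at 492, 523 and 419 FPKM at 10 DAF and 897, 909 and 713 FPKM at 14 DAF (log2 fold change 0.83, SE 0.19, adjusted p = 0.018; 2 of 6).

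Seed markers were checked because seeds adjoin the wall. Of 47 tested, 4 were higher (8.51% against 5.09% of all genes) and 0 lower, and the 4 all belong to the cupin family. Cupin Phvul.011G067800 stood at 74.5, 87.5 and 74 FPKM at 10 DAF and 158, 122 and 110.0 FPKM at 14 DAF (log2 fold change 0.75, SE 0.16, adjusted p = 0.015; 4 of 6). The summed FPKM of the 59 markers ran from 1471 to 1559 at 10 DAF and from 2336 to 2452 at 14 DAF. These ranges do not overlap. In each library of both ages 13 to 18 of the 59 were at 0. Oleosin 1 (Phvul.007G138300), which coats seed oil bodies, was at 0.124, 5.59 and 0 FPKM at 10 DAF and 0.43, 0 and 0 FPKM at 14 DAF. The part of seed tissue in these sums and in other results was not tested. Of the stomatal markers 2 were tested and 0 called.

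Some heat shock and clock genes were called higher, none of them in all 6 fits. Among 52 small heat shock genes 47 had positive log2 fold changes (median 0.77), 4 were called higher (7.69% against 5.09% of all genes) and 0 were in the core. Without 14 DAF replicate 1 the count was 14, without 10 DAF replicate 2 it was 1, and without any of the other 4 libraries it was 0. HSP20-like gene Phvul.008G112700 stood at 33.5, 53.7 and 57.1 FPKM at 10 DAF and 92.9, 146 and 336 FPKM at 14 DAF (log2 fold change 1.98, SE 0.47, adjusted p = 0.02; 1 of 6). Heat shock factor 4 (Phvul.002G019100) stood at 5.45, 3.79 and 2.83 FPKM at 10 DAF and 9.7, 13.1 and 23.4 FPKM at 14 DAF (log2 fold change 1.91, SE 0.37, adjusted p = 0.0088; 5 of 6). Replicate 3 of 14 DAF was highest in both. Of 10 clock genes 3 were higher (30%) and 0 lower. The count of 3 was 1, 3 and 0 without 10 DAF replicates 1, 2 and 3 and 3, 1 and 1 without 14 DAF replicates 1, 2 and 3. GIGANTEA (Phvul.007G083500), an evening clock protein, stood at 20.2, 21.8 and 17.6 FPKM at 10 DAF and 34.7, 35.4 and 33.8 FPKM at 14 DAF (log2 fold change 0.81, SE 0.18, adjusted p = 0.015; 4 of 6). Its second gene, Phvul.004G088300, changed by 1.48 (adjusted p = 0.014; 3 of 6), and pseudo-response regulator 5 (Phvul.009G045000) by 1.0 (adjusted p = 0.0496; 1 of 6). Time of day at harvest is not given in the sources used here, and its part was not tested.

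Several enzymes of specialised metabolism rose. O-methyltransferase 1 genes, which methylate phenolic compounds, were among 4 higher and 0 lower of 23 O-methyltransferases, a list made after values were seen. The share higher was 17.4%, against 5.09% of all genes. Phvul.009G044400 stood at 68.7, 61.6 and 71.9 FPKM at 10 DAF and 227, 446 and 362 FPKM at 14 DAF (log2 fold change 2.35, SE 0.36, adjusted p = 0.0027), Phvul.009G259300 at 17.8, 17 and 20.7 FPKM at 10 DAF and 47.3, 92.1 and 92 FPKM at 14 DAF (log2 fold change 2.05, SE 0.28, adjusted p = 0.0013) and Phvul.009G258700 at 3.26, 2.2 and 2.26 FPKM at 10 DAF and 8.85, 10.7 and 7.46 FPKM at 14 DAF (log2 fold change 1.81, SE 0.35, adjusted p = 0.0085). All 3 were in the core and had no overlap between ages. Glutathione transferases, which tag compounds for the vacuole, were higher in 7 and lower in 1 of 44, also a list made after values were seen. These shares were 15.9% and 2.27%, against 5.09% and 3.19% of all genes. PHI 9 genes Phvul.006G023500 and Phvul.006G022600 rose by 2.95 and 2.73 (adjusted p = 0.0027 and 0.0064), and TAU 19 (Phvul.011G178400) by 1.76 (adjusted p = 0.0037). The first stood at 2.63, 3.07 and 3.26 FPKM at 10 DAF and 9.44, 33.5 and 27.1 FPKM at 14 DAF and at 92.7, 40.5 and 95 FPKM at 18 DAF.

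Of 161 UDP-glycosyltransferases, which attach sugars to small molecules, 20 were lower and 11 higher, 12.4% and 6.83% against 3.19% and 5.09% of all genes. This list too was made after values were seen. The count of 20 was 7, 15 and 9 without 10 DAF replicates 1, 2 and 3 and 21, 5 and 7 without 14 DAF replicates 1, 2 and 3, and 4 of the lower and 2 of the higher were in the core. UGT84B1 (Phvul.007G039600), which conjugates auxin, stood at 7.51, 8.71 and 8.42 FPKM at 10 DAF and 1.44, 0.802 and 1.13 FPKM at 14 DAF (log2 fold change -2.84, SE 0.38, adjusted p = 0.0013). UGT73B1 (Phvul.010G101800) stood at 27.4, 10.5 and 20.1 FPKM at 10 DAF and 1.41, 0.138 and 0.489 FPKM at 14 DAF (log2 fold change -4.76, SE 0.96, adjusted p = 0.011). Phvul.003G288200, of the same superfamily, stood at 24.3, 18.8 and 21.7 FPKM at 10 DAF and 4.44, 2.49 and 2.98 FPKM at 14 DAF (log2 fold change -2.68, SE 0.39, adjusted p = 0.0023). The ages did not overlap in any of them. UGT78D2 (Phvul.006G201100), a flavonoid glucosyltransferase, changed by -1.75 (adjusted p = 0.011; 5 of 6).

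Of 173 cytochrome P450 genes 17 were higher and 12 lower, 9.83% and 6.94% against 5.09% and 3.19% of all genes, with 5 and 2 of them in the core. The balance turned with the method, since limma called 12 higher and 26 lower on log2(FPKM + 1) and 16 and 23 on log2(FPKM + 0.1). With 1 library left out, 6 to 20 were higher, the fewest without 14 DAF replicate 2 and the most without 14 DAF replicate 1, and 2 to 16 were lower, with the ends at the same libraries. CYP83B1 (Phvul.006G039800), named after an Arabidopsis glucosinolate enzyme, stood at 0.793, 1.22 and 1.54 FPKM at 10 DAF and 12.4, 54.9 and 53.6 FPKM at 14 DAF (log2 fold change 5.06, SE 0.73, adjusted p = 0.0021) and at 442, 76.4 and 428 FPKM at 18 DAF. CYP93D1 (Phvul.003G051700), of a family that acts on flavonoids in legumes, stood at 0.0994, 0.153 and 0 FPKM at 10 DAF and 1.26, 24.1 and 11.9 FPKM at 14 DAF (log2 fold change 7.03, SE 1.47, adjusted p = 0.012; 4 of 6) and at 139.7, 52.8 and 237 FPKM at 18 DAF. In both genes every 18 DAF library was above every 14 DAF library. A further gene matched to CYP93D1 was in the core and fell, from a mean of 1.39 FPKM at 10 DAF to 0.0203 FPKM at 14 DAF (log2 fold change -5.73).

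In the flavonoid list 1 gene was higher and 1 lower of 28, and the median of -1.79 rested on replicate 2 of 10 DAF. Without it the median was -0.05. Dihydroflavonol reductase (Phvul.001G012700), the entry to anthocyanins and tannins, stood at 1.27, 239 and 2.17 FPKM at 10 DAF and 17.6, 0.246 and 1.07 FPKM at 14 DAF (log2 fold change -3.57, SE 1.97, adjusted p = 0.29), and without that library its log2 fold change was 1.93. Flavanone 3-hydroxylase (Phvul.003G261900) stood at 92.6, 389 and 74.8 FPKM at 10 DAF and 50.8, 15.7 and 43.7 FPKM at 14 DAF (log2 fold change -2.30, SE 0.82, adjusted p = 0.096). One library of 10 DAF thus held most of the transcripts of these genes. The called genes were chalcone isomerases, Phvul.007G008600 at 1.04, 3.62 and 0.635 FPKM at 10 DAF and 5.35, 31.2 and 19.9 FPKM at 14 DAF (log2 fold change 3.39, SE 0.70, adjusted p = 0.012; 3 of 6) and Phvul.002G276500 with -1.05 (adjusted p = 0.011; 5 of 6).

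Some further genes were listed at 0 or near 0 at one of the ages. A subtilisin-like protease, Phvul.008G229500, was at 12.3, 6.01 and 9.89 FPKM at 10 DAF and 0, 0 and 0 FPKM at 14 DAF and was at least 1334-fold lower, taking a floor of 3 counts over the 14 DAF libraries. Germin 3 (Phvul.010G129600), a wall protein, stood at 31.2, 19.95 and 10.7 FPKM at 10 DAF and 0.0672, 0.106 and 0 FPKM at 14 DAF (log2 fold change -8.19, SE 1.41, adjusted p = 0.0049). Gamma-glutamyl hydrolase 1 (Phvul.005G080600) fell from a high level, at 532, 402 and 466 FPKM at 10 DAF and 81.1, 29.5 and 37.3 FPKM at 14 DAF (log2 fold change -3.21, SE 0.51, adjusted p = 0.0031). All 14 DAF values were below all 10 DAF values in these genes. A cysteine proteinase, Phvul.006G176920, stood at 0, 0 and 0 FPKM at 10 DAF and 0.0676, 16.6 and 9.86 FPKM at 14 DAF, at least 506-fold higher by the same floor (adjusted p = 0.019; 2 of 6). A methyltransferase, Phvul.004G172600, stood at 0, 0 and 0 FPKM at 10 DAF and 0.417, 9.21 and 6.08 FPKM at 14 DAF, at least 236-fold higher (adjusted p = 0.0034). In both, replicate 1 of 14 DAF was close to the zero of 10 DAF. Subtilase Phvul.001G026100 shared with lipid transfer protein 6 the second lowest adjusted p, at 18.5, 20.8 and 18 FPKM at 10 DAF and 133, 245 and 125 FPKM at 14 DAF (log2 fold change 3.14, SE 0.28, adjusted p = 9.7e-05) and at 502, 413 and 306 FPKM at 18 DAF.

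**Figure D4:**
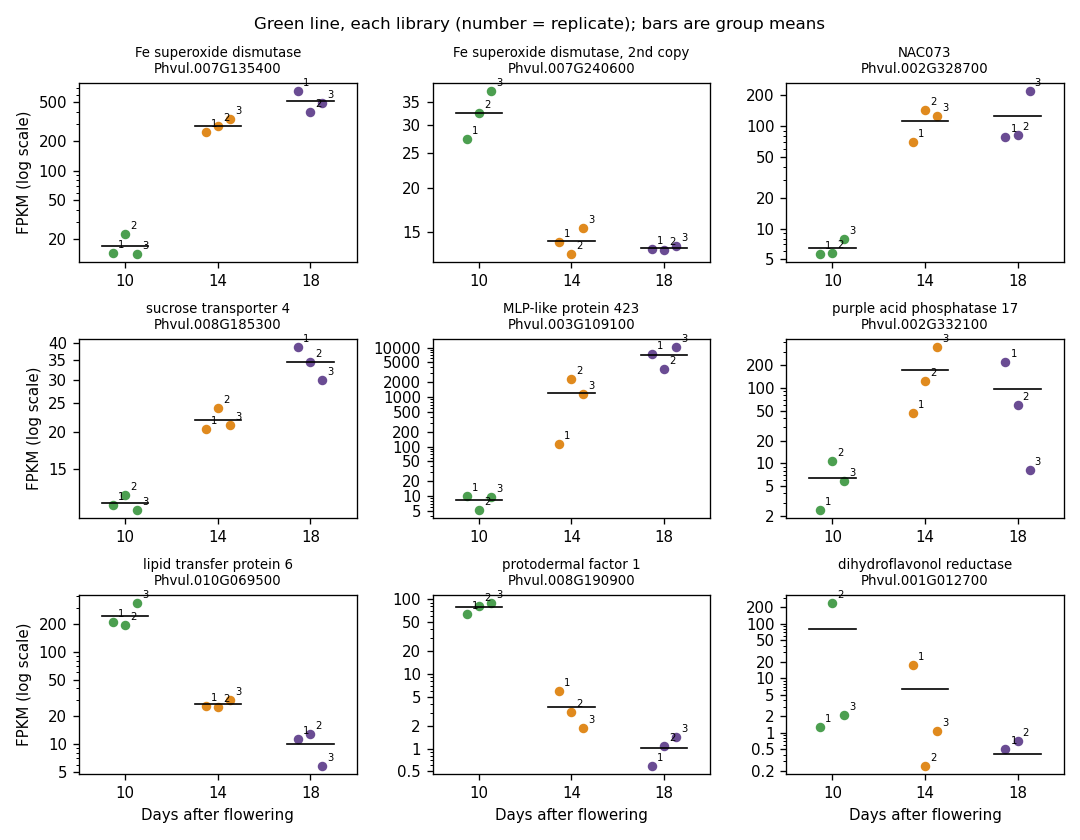
FPKM on a log scale of 9 genes in each green library at 10, 14 and 18 DAF, with replicate numbers beside the points and group means as bars (a value of 0 is not drawn). Sucrose transporter 4 and both iron superoxide dismutases have tight replicates, MLP423 has a low replicate 1 at 14 DAF, and dihydroflavonol reductase has 1 high library at 10 DAF, replicate 2 at 239 FPKM.

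The green line's change was then set against the golden line's change over the same 4 days, with no library shared. The difference was called for 263 genes, 1.15% of those tested, 184 with the green change above the golden (0.807%) and 79 below (0.346%). Of the 263, 202 were also called in the green comparison itself, 145 of them higher and 57 lower at 14 DAF. The count lay between 71 and 540 when 1 of the 12 libraries was left out, with the lowest value without 10 DAF green replicate 3 and the highest without 14 DAF golden replicate 3. In all 12 such fits 59 of the genes were called. The number of the 12 is given below and in the closing section for the genes outside these 59. None of the 15 chlorophyll synthesis genes and none of the 34 antenna and 60 photosystem genes was called in this test, so their change was not shown to differ between the lines. Their median differences were -0.73 for chlorophyll synthesis, -0.39 for antenna and -0.70 for photosystem genes, against 0.04 for all genes.

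Golden levels are given as the mean ± SD of the 3 libraries of an age. The iron superoxide dismutase Phvul.007G135400 had a golden level of 261 ± 44.4 FPKM at 10 DAF and 299.5 ± 68.1 at 14 DAF, and the green change exceeded the golden by 3.90, SE 0.33, adjusted p = 1.3e-04 on the log2 scale. At 10 DAF the green line was far below the golden line, and at 14 DAF the group means lay close together. Its counterpart Phvul.007G240600 had a golden level of 20.2 ± 1.53 FPKM at 10 DAF and 28.3 ± 2.93 at 14 DAF and a difference of -1.66, SE 0.25, adjusted p = 0.0079. The chloroplast-targeted copper chaperone Phvul.011G068700 rose in the golden line on average, from 2.31 ± 0.429 FPKM at 10 DAF and 9.06 ± 7.66 at 14 DAF, and differed by -4.40, SE 0.78, adjusted p = 0.015 (9 of 12). All 3 genes thus differed between the lines in their course from 10 to 14 DAF.

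Surface and wall genes were among those that differed. GDSL lipase Phvul.003G056700 stood at 0, 0 and 0 FPKM at 10 DAF and 0.879, 3.3 and 1.94 FPKM at 14 DAF in the green line, at least 132-fold higher at 14 DAF, and at 10.9 ± 1.82 FPKM at 10 DAF and 5.85 ± 0.789 at 14 DAF in the golden line (adjusted p = 0.001). By the same floor its difference was at least 7.96 on the log2 scale. The transporter ABCG11 homolog Phvul.002G210600, described as white-brown complex protein 11 and known for moving cuticle lipids, stood at 0, 0 and 0 FPKM at 10 DAF and 0.305, 0.588 and 0.119 FPKM at 14 DAF in the green line, at least 40.5-fold higher at 14 DAF, and at 7.92 ± 2.01 FPKM at 10 DAF and 4.03 ± 1.16 at 14 DAF in the golden line. Its difference was at least 6.33 (adjusted p = 0.027; 4 of 12). In both genes the green line started at 0 and the golden mean fell between the ages. Ketoacyl-CoA synthase 1 (Phvul.009G257100) was at 44 ± 11 FPKM at 10 DAF and 20.1 ± 9.18 at 14 DAF in the golden line, a difference of 3.20, SE 0.54, adjusted p = 0.012.

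Lipid transfer protein 6 (Phvul.010G069500) was at 24 ± 1.81 FPKM at 10 DAF and 22.9 ± 5.61 at 14 DAF in the golden line, near the green level of 14 DAF, and its difference was -3.08, SE 0.38, adjusted p = 0.0032. Pectin lyase-like Phvul.001G135100 was at 49.3 ± 4.46 FPKM at 10 DAF and 54.6 ± 7.29 at 14 DAF in the golden line (4.67, SE 0.78, adjusted p = 0.012) and pectin methylesterase 3 (Phvul.009G261700) at 6.48 ± 0.363 FPKM at 10 DAF and 9.73 ± 4.23 at 14 DAF (-3.21, SE 0.57, adjusted p = 0.014; 11 of 12). For each of these genes the golden values at both ages were nearer to the green values of 14 DAF than to those of 10 DAF. Mean correlations across all tested genes had a like offset. Golden 10 DAF libraries correlated at 0.877, 0.871 and 0.853 with green 10 DAF and at 0.890, 0.891 and 0.875 with green 14 DAF. Golden 14 DAF libraries correlated at 0.825, 0.835 and 0.875 with green 14 DAF and at 0.867, 0.871 and 0.892 with green 18 DAF. The part of this offset in the line differences was not tested.

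Other core genes differed as well. Subtilase Phvul.001G026100 was at 248 ± 26.4 FPKM at 10 DAF and 332 ± 58.4 at 14 DAF in the golden line (2.74, SE 0.37, adjusted p = 0.0057), and sucrose transporter 4 (Phvul.008G185300) at 25.2 ± 0.749 FPKM at 10 DAF and 27.1 ± 0.158 at 14 DAF (0.86, SE 0.15, adjusted p = 0.014; 10 of 12). NAC073 (Phvul.002G328700) was at 14.6 ± 1.47 FPKM at 10 DAF and 17.5 ± 4.75 at 14 DAF, so that the green line overtook the golden line at 14 DAF (3.89, SE 0.68, adjusted p = 0.014; 11 of 12). O-methyltransferase 1 gene Phvul.009G259300 was at 68 ± 3.29 FPKM at 10 DAF and 35.7 ± 12.9 at 14 DAF (2.99, SE 0.38, adjusted p = 0.0042) and phloem protein 2-B10 (Phvul.001G013300) at 119 ± 33.2 FPKM at 10 DAF and 65.4 ± 15.7 at 14 DAF (2.65, SE 0.44, adjusted p = 0.012). The abundant MLP43-like gene Phvul.011G184200 was at 1944 ± 129 FPKM at 10 DAF and 1741 ± 358 at 14 DAF (2.01, SE 0.28, adjusted p = 0.0057). In the golden line the means of these last 3 genes were lower at 14 than at 10 DAF, whereas they rose in the green line. Methyl esterase 17 (Phvul.008G186600), which acts on methylated auxin, fell in the green line from 5.26, 8.19 and 5.68 to 1.31, 0.538 and 1.23 FPKM and was at 2.08 ± 0.165 FPKM at 10 DAF and 4.17 ± 0.72 at 14 DAF in the golden line (-3.57, SE 0.61, adjusted p = 0.014).

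Of the 263 genes, 61 differed between the lines without being called in the green line alone. Cytokinin oxidase 6 (Phvul.011G014000), which breaks down cytokinin, stood at 3.61, 4.1 and 4.05 FPKM at 10 DAF and 1.68, 1.26 and 2.3 FPKM at 14 DAF in the green line and at 0.704 ± 0.162 FPKM at 10 DAF and 5.48 ± 3.72 at 14 DAF in the golden line (-4.08, SE 0.69, adjusted p = 0.012). GDSL lipase Phvul.006G107300 stood at 17.2, 9.19 and 8.94 FPKM at 10 DAF and 71.2, 33.6 and 64.6 FPKM at 14 DAF in the green line and at 89 ± 45.3 FPKM at 10 DAF and 4.04 ± 2.54 at 14 DAF in the golden line (6.74, SE 1.18, adjusted p = 0.014; 10 of 12). The first went in opposite directions in the group means of the lines, and so did the second.

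**Figure D5:**
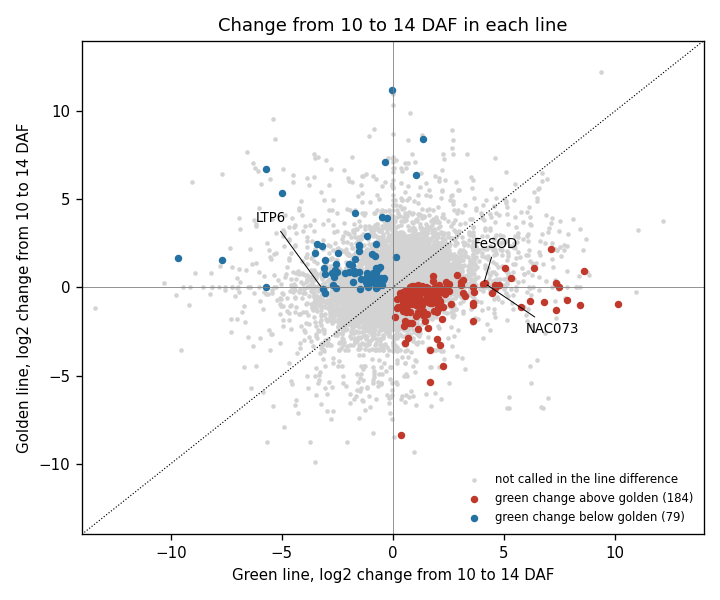
Log2 change from 10 to 14 DAF of each tested gene in the green line (x axis) and in the golden line (y axis, the green change minus the fitted difference), with the 184 and 79 genes called in the difference coloured and a dotted line of equal change. Most coloured points lie to the right of 0 with golden changes around or under 0, among them the iron superoxide dismutase (FeSOD) and NAC073, and lipid transfer protein 6 (LTP6) is among those to the left.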

How the data were processed

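RNA of 18 libraries, 3 for each of 2 lines at 3 ages, had been extracted with Trizol, poly(A)-selected and paired-end sequenced (Illumina NovaSeq), per the labels' protocols. The authors deposited estimated counts, already whole numbers, and FPKM values per gene, per the file headers. FPKM were scaled by the authors to library totals. No source used here names the aligner, counter, strand setting or build, so near copies and overlapping or antisense genes could not be told apart. Of 25124 genes, 17191 had assembled identifiers and no coordinates, and the genes named here have none. The 635 genes with no name held 2.20% to 3.97% of a library's counts.

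Counts were fitted with edgeR 4.0.16 (R 4.3.3): its expression filter kept 22805 genes, TMM set the scaling, and all 18 libraries entered 1 quasi-likelihood model with a mean per group. Two-sided p-values were adjusted over all tested genes (Benjamini-Hochberg), and adjusted p under 0.05 was a call. Each SE was derived from the test, as the size of the log2 value over the square root of its F statistic. The fit had 12 residual degrees of freedom and a common dispersion of 0.155. Total counts set a counting error that was small beside the spread between replicates for all but the lowest genes. No green replicate pair at 10 or 14 DAF was a repeated library (chi-square of at least 51.3 per gene). A fold against a group at 0 is a lower bound from 3 counts summed over its libraries; such floors cover counting error alone, since reads carried no molecular identifiers.

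Lists were taken from patterns in the descriptions, 43 in the plan and 18 added after values were seen. Members and lists were chosen with earlier results of these data known. Genes are named by a rule: called, described, at least 5 FPKM in the higher group and no overlap, the largest changes per direction, per list and in the line difference, with fixed clock and photosynthesis genes. The text names 149 genes, 56 of them outside that rule and chosen after their values were seen. No list was given a test. Alternatives were RLE, upper quartile and total-count scaling, DESeq2 1.42.0, limma 3.58.1 on log2 FPKM with a pseudocount of 1 or 0.1, no filter, a filter at 5 FPKM, a replicate block, only the libraries compared, and each library left out; the lists were run without single libraries and by the other tools as a choice made after seeing the data. The tests were tried on simulated data.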

Additional observations from a re-analysis of the deposited data

Results flagged for a closer look

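The change from 10 to 14 DAF differed between the green and the golden line for 263 genes in a test of the difference itself, and 38 genes named in the text are among them. Differences are the log2 change of the green line minus that of the golden line. Those in the next paragraph were called in all 12 fits that left out 1 library, and the others are given with the number of the 12 that called them.

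Above 0 in all 12 fits were GDSL lipase Phvul.009G018200 at 3.72, ketoacyl-CoA synthase 1 (Phvul.009G257100) at 3.20, pectin lyase-like Phvul.001G135100 at 4.67, and the iron superoxide dismutase Phvul.007G135400 at 3.90. So were O-methyltransferase 1 gene Phvul.009G259300 at 2.99, subtilase Phvul.001G026100 at 2.74, phloem protein 2-B10 (Phvul.001G013300) at 2.65 and MLP-like Phvul.011G184200 at 2.01. GDSL lipase Phvul.003G056700, at 0 in the green line at 10 DAF, differed by at least 7.96 by the floor of 3 counts. Below 0 in all 12 fits were cytokinin oxidase 6 (Phvul.011G014000) at -4.08, methyl esterase 17 (Phvul.008G186600) at -3.57, lipid transfer protein 6 (Phvul.010G069500) at -3.08 and the second iron superoxide dismutase, Phvul.007G240600, at -1.66.

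Differences above 0 that most but not all fits called were 6.74 for GDSL lipase Phvul.006G107300 (10 of 12), 3.89 for NAC073 (Phvul.002G328700; 11 of 12), 2.73 for O-methyltransferase 1 gene Phvul.009G044400 (9 of 12), 1.10 for replication protein A 1A (Phvul.009G228500; 9 of 12) and 0.86 for sucrose transporter 4 (Phvul.008G185300; 10 of 12). MLP-like Phvul.011G183000 differed by 5.23 (6 of 12), and xyloglucan endotransglucosylase/hydrolase 6 (Phvul.003G231900) and pectin lyase-like Phvul.003G127700 by 4.77 and 3.98 (5 and 5 of 12). The lipid transporter homolog Phvul.002G210600, at 0 in the green line at 10 DAF, differed by at least 6.33 (4 of 12).

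Other differences above 0 were called in 1 or 2 of the 12 fits. In 2 of 12 they were 2.42 and 1.94 for purple acid phosphatases Phvul.011G008700 and Phvul.002G181500 and 1.46 for auxin efflux carrier Phvul.002G119300. In 1 of 12 they were 6.94 for chitinase A (Phvul.004G101500), 4.92 for MLP-like Phvul.003G109100, 3.98 for CYP83B1 (Phvul.006G039800), 2.21 for O-methyltransferase 1 gene Phvul.009G258700, 1.24 for MtN3 family gene Phvul.001G064300 and 1.04 for cupin Phvul.011G067800.

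Further differences below 0 were -4.40 for the chloroplast-targeted copper chaperone Phvul.011G068700 (9 of 12), -3.21 for pectin methylesterase 3 (Phvul.009G261700; 11 of 12), -2.84 for glycosyltransferase Phvul.003G288200 (5 of 12) and -1.35 for chalcone isomerase Phvul.002G276500 (2 of 12). EXPANSIN A15 (Phvul.009G186400), the HD-ZIP IV gene Phvul.005G168900 and the inner envelope translocon gene Phvul.008G250000 differed by -2.56, -2.53 and -0.61, each called in 1 of 12. What sets these differences apart was not tested.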

How the results depend on the processing

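None of the 1887 genes called at 14 against 10 DAF changed sign under any of the alternatives run, and of the 263 called in the line difference 1 did, by limma on log2(FPKM + 1), but the number of calls varied widely. DESeq2 called 3428 genes (1886 higher, 1542 lower), and a fit of the 6 green libraries alone called 3142, 1655 of them lower. By limma 1442 were lower on log2(FPKM + 1) and 1096 on log2(FPKM + 0.1). Calls were 61.5% upward in the fit reported, 42.8% and 50.2% in those by limma, and 47.3% in the fit of the 6 libraries. With 1 library left out the total lay between 422 and 2331, the higher count between 305 and 1503 and the lower count between 104 and 828. The difference between the lines gave 1230 genes by DESeq2 (658 above, 572 below), 607 by limma on log2(FPKM + 1) (289 and 318) and 405 on log2(FPKM + 0.1), 181 of them below. In a fit of the 12 libraries concerned it gave 1195 (604 and 591). With 1 library left out it lay between 71 and 540, with 52 to 352 above and 16 to 188 below. The cause was not tested, except that leaving out a library leaves fewer samples.

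Replicate numbers are shared between the groups. Deviations of same-numbered libraries of 10 and 14 DAF from their group means correlated at -0.169, -0.163 and 0.0779. With 3 libraries a group these deviations are tied to each other. Whether same-numbered libraries share more than a number therefore cannot be told from them. With the replicate block 1373 genes were called at 14 against 10 DAF and 134 in the line difference (100 above, 34 below). Replicate 3 correlated best with its own number and replicates 1 and 2 did not.

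Of the named values the dihydroflavonol reductase Phvul.001G012700 and oleosin 1 (Phvul.007G138300), neither of them called, reversed without replicate 2 of 10 DAF, to 1.93 and 1.18, and stood between those values and -6.94 and -8.67 over the leave-out fits. Values near 0 are limited by counting depth.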

Other observations

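Some further genes and families lay outside the groups described above. Of 132 tested MYB factors 5 were higher and 6 lower at 14 DAF in the green line, and 2 of the 11 were in the core of genes called in all 6 fits that left out 1 green library. MYB66 (Phvul.003G200100), an epidermal patterning factor in Arabidopsis, stood at 3.83, 5.68 and 6.23 FPKM at 10 DAF and 0.311, 0 and 0.11 FPKM at 14 DAF (log2 fold change -5.03, SE 1.31, adjusted p = 0.034) and was called in 1 of the 6. A BURP domain gene, Phvul.009G180600, of a plant-specific secreted family, stood at 237, 162 and 267 FPKM at 10 DAF and 18.3, 4.7 and 3.67 FPKM at 14 DAF (log2 fold change -4.58, SE 0.99, adjusted p = 0.014; 4 of 6). Both were far lower in every 14 DAF library. Of 47 subtilases, secreted proteases, 4 were higher and 2 lower, and subtilase 4.12 (Phvul.001G238100) stood at 5.61, 2.57 and 3.71 FPKM at 10 DAF and 9.8, 68.4 and 35.6 FPKM at 14 DAF (log2 fold change 3.23, SE 0.62, adjusted p = 0.0082; 6 of 6). Of 26 terpenoid cyclases 4 were higher and 1 lower (15.4% and 3.85%). Of 52 peroxidases 3 were higher and 0 lower (5.77% and 0%), and of 74 WRKY factors 2 were higher and 1 lower (2.70% and 1.35%). The shares higher and lower were 3.79% and 4.55% for the MYB factors and 8.51% and 4.26% for the subtilases. Over all tested genes they were 5.09% and 3.19%. The subtilase and terpenoid cyclase lists were made after values were seen.

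A leucine-rich repeat kinase, Phvul.005G163700, stood at 0.0529, 0 and 0.0959 FPKM at 10 DAF and 1.04, 15.5 and 14.4 FPKM at 14 DAF (log2 fold change 7.52, SE 1.66, adjusted p = 0.015; 2 of 6) and at 4.51, 2.43 and 10.9 FPKM at 18 DAF. A DUF581 gene, Phvul.010G124000, stood at 77.9, 4.11 and 4.76 FPKM at 10 DAF and 0.809, 0.127 and 1.09 FPKM at 14 DAF (log2 fold change -5.37, SE 1.17, adjusted p = 0.014; 4 of 6). Its replicate 1 of 10 DAF was far above the other 2 of that age. Of the 1887 called genes, 289 had no description and are counted but not named.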
